A study of Homo sapiens with 14 samples.

Results

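The libraries of unmixed cells in a mixing series of HEK-293T and Jurkat cells were compared gene by gene. They were chosen by their labels as the libraries with 100% HEK cells and with 0% HEK cells, and they make up 4 of the 14 libraries, 2 for each line. HEK-293T cells derive from human embryonic kidney, grow attached to the dish and carry the large T antigen of a polyomavirus. Jurkat is a line from a human T cell leukemia that grows in suspension. HEK-293T cells came from ATCC and were kept in DMEM, Jurkat cells came from a laboratory and were kept in RPMI, and both media held 10% fetal bovine serum. Neither line was treated, and each sample held the same number of cells, collected after the last passage. Oligo(dT) beads selected polyadenylated RNA, synthetic ERCC spike-in RNA was put into it at the same volume for every sample, and barcoded cDNA was sequenced. The labels call the libraries of a group technical replicates, so every p-value below measures the spread between such libraries and says nothing on how other cultures of these lines would vary. Line, medium and origin of the cells differ together and cannot be told apart.

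Every cell type runs a shared set of genes for energy, protein synthesis and division and adds to it the genes of its own lineage. T cells add the antigen receptor with its CD3 chains, the kinases and adaptors that read it, and a set of actin regulators used by blood cells that crawl and round up. Cells that grow attached add junction and matrix genes and the contractile filaments that pull on them. HEK cells are also known for expressing genes of the developing kidney and of neurons. Several gene families hold a member that blood cells favour and a related member that most other tissues use.

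The deposited values were expected counts, which are estimated read counts per gene. They came to 9452243 and 15158082 gene counts in the HEK libraries and 4468822 and 6204316 in the Jurkat libraries. CPM below are counts per 1000000 gene counts, which are shares of the counted mRNA. A gene at 3 counts stood at 0.198 to 0.671 CPM in these libraries, which limits what can be seen below that level. Spike-ins made up 0.674% and 1.02% of all counts in the HEK libraries and 7.65% and 7.51% in the Jurkat libraries. Levels per 1000 ERCC counts were therefore used as the second scale, which follows the amount of captured mRNA per sample. Samples were prepared with the same number of cells, and the number of cells that reached lysis was not measured here. The libraries alone cannot tell fewer cells from less mRNA per cell. Among genes at a mean of 100 CPM or more, 4.40% in HEK and 12.2% in Jurkat were over 2-fold apart between the libraries of the line. The markers of each line stood where the labels place them. CD3E, CD247, CD28 and TAL1 had 34.0 to 82.8 CPM in the Jurkat libraries and at most 0.317 in the HEK libraries, and KRT18 had 34.0 and 32.3 CPM in the HEK libraries and 0.224 and 0 in the Jurkat libraries. PAX2, a kidney development factor used as a HEK marker, was low, at 1.48 and 2.44 CPM against 0 and 0. The summed CPM of 8 B cell markers was 9.63 and 6.27 in HEK and 16.3 and 19.7 in Jurkat, that of 9 myeloid markers 0.952 and 1.09 against 5.62 and 4.88, that of 8 erythroid markers 0.846 and 1.45 against 0 and 1.61, and that of 9 fibroblast markers 13.8 and 12.7 against 25.0 and 19.9. Among them, 4 B cell, 1 myeloid and 2 fibroblast markers passed the filter on low counts used below. CD79A, a chain of the B cell receptor, had 5.15 and 6.93 CPM in Jurkat, and THY1, which T cells can also express, had 22.1 and 15.7 CPM in Jurkat. MPO, FCGR3A, HBB, HBG1 and ALAS2 were at 0 in all 4 libraries. The part of other cell types in the results was not tested beyond these levels.

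As shares of mRNA, the lines differed in a large part of their expressed genes, in both directions. HEK was higher in developmental transcription factors, matrix, adhesion and neurofilament genes. Jurkat was higher in T cell receptor, signaling, leukocyte actin and GIMAP genes and in CDK6, SOX4 and HMGB1. Of 58440 genes, 15794 passed the filter on low counts. edgeR's quasi-likelihood test called 6827 of them at an adjusted p of 0.05, or 43.2%. HEK was higher in 3825 genes (24.2%) and Jurkat in 3002 (19.0%). The libraries of the lines did not overlap in 74.8% of the genes tested. With a HEK library left out, 1822 and 1372 genes were called without the first, and 1769 and 1362 without the second. HEK took 56.0% of the calls after TMM scaling and 66.2% on plain library totals, and this change moved the median log2 difference of all genes from 0.07 to 0.29. Log2 differences below come from the TMM-scaled fit and are to be read against that median, while folds are plain ratios of mean CPM or of mean levels per ERCC count. Calls and list counts below are as shares of mRNA unless the ERCC scale is named. A gene silent in 1 line passed the filter only through the other. Counts of called members among those tested are therefore descriptions, to be read against these percentages.

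Many of these differences were large. Differences over 16-fold were found for 863 genes called higher in HEK and 584 called higher in Jurkat, with genes at 0 in the other line held at the floor of 3 counts per library. Of the called genes, 504 higher in HEK and 155 higher in Jurkat were at 0 in both libraries of the other line. Protein-coding genes made up 3256 of the HEK calls and 2326 of the Jurkat calls, and long noncoding RNAs 352 and 380.

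Per ERCC count the picture was one-sided, since nearly every gene was more abundant in a HEK sample. HEK was higher in 14616 genes (92.5%) and Jurkat in 509 (3.22%), with a median log2 difference of 3.61. Of the 3002 genes called higher in Jurkat as shares, 1858 were higher in HEK per ERCC count, 636 were not called and 508 stayed higher in Jurkat.

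**Figure D1:**
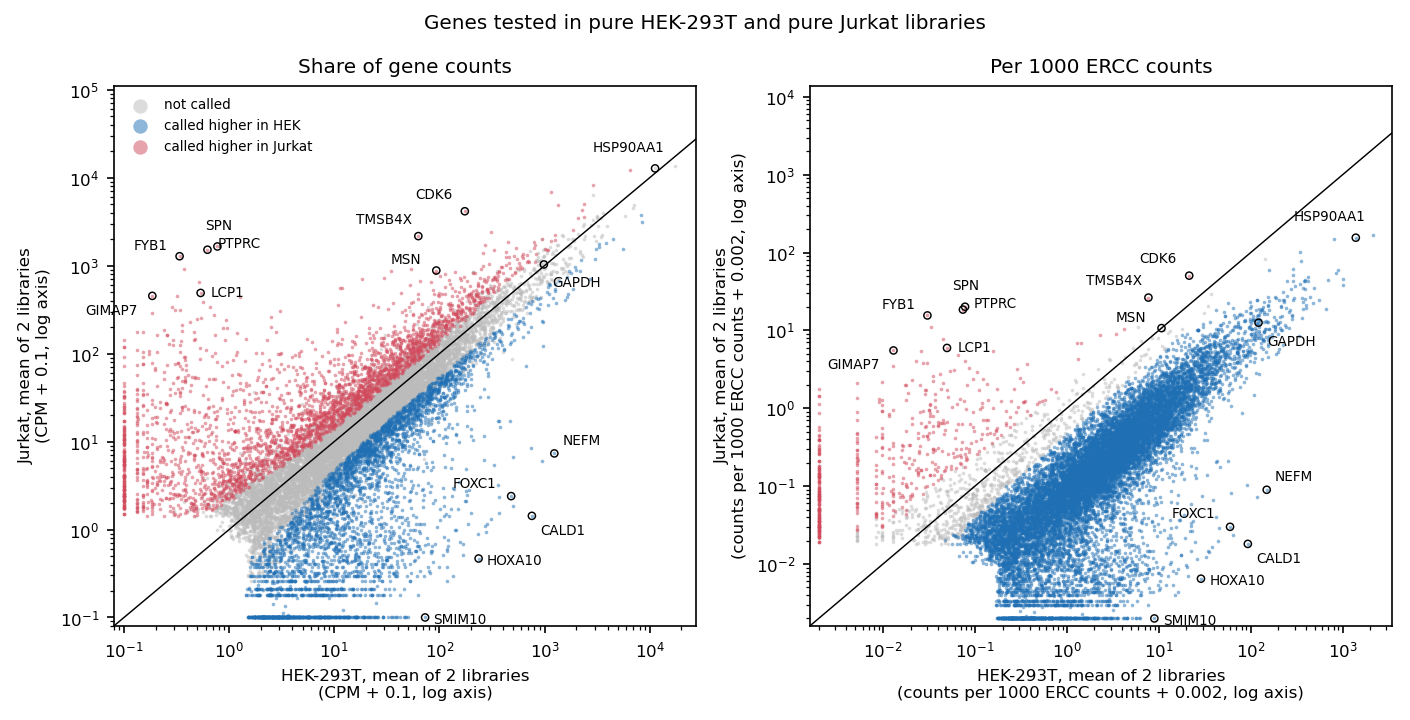
Mean level of each tested gene in the HEK libraries (x axis) and the Jurkat libraries (y axis), on log scales, as CPM and per 1000 ERCC counts, with 0.1 CPM or 0.002 added and genes called higher in either line in colour. As shares the cloud lies on the diagonal with 3825 and 3002 called genes at its sides, and per ERCC count it lies below the diagonal, with 509 genes called higher in Jurkat.

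The most abundant genes of the lines were largely shared and changed rank. Per transcript length, mitochondrial mRNAs led HEK and the prothymosin gene PTMA led Jurkat. TPM divide counts by transcript length. The cDNA was primed with barcoded oligo(dT), and whether counts grow with transcript length in such libraries was not tested. TPM ranks between genes are therefore uncertain and may favour short transcripts. By TPM, MT-ATP6 was the first gene in HEK at 12865 ± 340 (SD, n = 2). In Jurkat it had 6114 ± 693 and was at rank 11. PTMA, which encodes a small acidic chromatin protein, was the first gene in Jurkat at 20494 ± 1014 TPM and at rank 7 in HEK at 9464 ± 2127. The mitochondrial subunit genes MT-CO3, MT-CO2 and MT-ND3 followed in HEK, at 11249 ± 1185, 10622 ± 110 and 10617 ± 96.6 TPM, and were at ranks 19, 7 and 12 in Jurkat. HMGB1, a DNA-bending protein, was at rank 57 in HEK, with 2531 ± 359 TPM, and at rank 5 in Jurkat, with 9423 ± 3766.

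The same genes were tested on counts. MT-CO3, a subunit of cytochrome oxidase, had 7887 and 9045 CPM in the HEK libraries and 2996 and 3292 in the Jurkat libraries. Its log2 difference was 1.20 ± 0.21 (approximate SE, edgeR adjusted p = 0.010). For log2 differences, the value after ± is the absolute difference divided by the square root of the test's F statistic. It is not a direct SE and can understate the error of genes with few reads in a line. SERBP1, a ribosome-bound mRNA binding protein, had 4880 and 6214 CPM against 1674 and 1398, a log2 difference of 1.63 ± 0.24 (adjusted p = 0.0060). PTMA had 7094 and 5796 CPM in HEK and 11912 and 12315 in Jurkat, a log2 difference of -1.14 ± 0.22 (adjusted p = 0.013). For each of these genes the libraries of the lines were well apart. HMGB1 had 2687 and 3086 CPM in HEK and 6830 and 9580 in Jurkat, with a log2 difference of -1.73 ± 0.27 (adjusted p = 0.0067). HSP90AB1, a constitutive chaperone, was higher in Jurkat, with a log2 difference of -1.30 ± 0.27, while its inducible relative HSP90AA1, at 11858 and 10628 CPM in HEK and 14910 and 10585 in Jurkat, was not called. The nuclear noncoding RNA MALAT1 was higher in Jurkat, with a log2 difference of -2.08 ± 0.34 (adjusted p = 0.0079). The mitochondrial ribosomal RNA MT-RNR2 held the largest share in both lines, with 19075 and 15358 CPM against 12957 and 14430, and was not called. Part of these calls rested on single libraries or on the group of file names described at the end. Without the second HEK library, the edgeR adjusted p was 0.054 for MT-CO3 and 0.080 for PTMA, and without the first or the second HEK library it was 0.088 and 0.055 for HSP90AB1. In the fit over all 14 libraries with the group as a term, log2 differences kept their sign and were not called for PTMA (-0.87, adjusted p = 0.18), HMGB1 (-1.18, 0.081), HSP90AB1 (-0.51, 0.59) and MALAT1 (-1.07, 0.48).

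SOX4 and CDK6 stood out among the top genes of Jurkat. SOX4, an HMG box transcription factor of progenitor cells, had 1300 and 992 CPM in the HEK libraries and 8078 and 5697 in the Jurkat libraries. It was at rank 109 by CPM in HEK and at rank 5 in Jurkat, with a log2 difference of -2.81 ± 0.29 (adjusted p = 0.0022). CDK6, a kinase that drives the G1 phase, had 178 and 170 CPM against 4828 and 3473, moving from rank 973 to rank 12. Its log2 difference was -4.80 ± 0.28 (adjusted p = 0.00064). TPM, which divide by length, put these genes far lower, at 1255 ± 327 for SOX4 and 380 ± 93.9 for CDK6 in Jurkat. Both have long transcripts, so the limit on TPM given above applies to them.

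Per ERCC count the abundant genes fell into 3 kinds. PTMA and HMGB1 were higher in HEK after all, at 1046 and 564 per 1000 ERCC counts in HEK against 144 and 152 in Jurkat for PTMA. SOX4, at 192 and 96.6 per 1000 ERCC counts in HEK and 97.6 and 70.2 in Jurkat, was not called. CDK6 stayed higher in Jurkat, at 58.3 and 42.8 against 26.3 and 16.5, a log2 difference of -1.24 ± 0.50 (adjusted p = 0.013), and was not called without the first or the second Jurkat library (edgeR adjusted p = 0.25 and 0.094). Without the first Jurkat library, HMGB1 was not called either (adjusted p = 0.066), and without the second HEK library SOX4 was called higher in HEK (adjusted p = 0.017). TMSB4X, which binds actin monomers, had 63.6 and 62.2 CPM in HEK and 2129 and 2202 in Jurkat. It was higher in Jurkat on both scales, with log2 differences of -5.33 ± 0.23 as a share and -1.78 ± 0.51 per ERCC count (adjusted p = 0.00064 and 0.00052). ADA, the adenosine deaminase of purine breakdown, had log2 differences of -5.26 and -1.73 on these scales.

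A small group had nearly the same amount per sample in both lines. Of the genes tested, 146 differed by less than 25% per ERCC count, counted from the lower line. Among the most abundant of them in Jurkat were MSN, SH3BP5, RNF168 and PAK2. MSN, which ties actin to the membrane, had 9.61 and 11.8 per 1000 ERCC counts in HEK and 12.9 and 8.47 in Jurkat. These genes were called higher in Jurkat as shares and were not called per ERCC count.

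**Figure D2:**
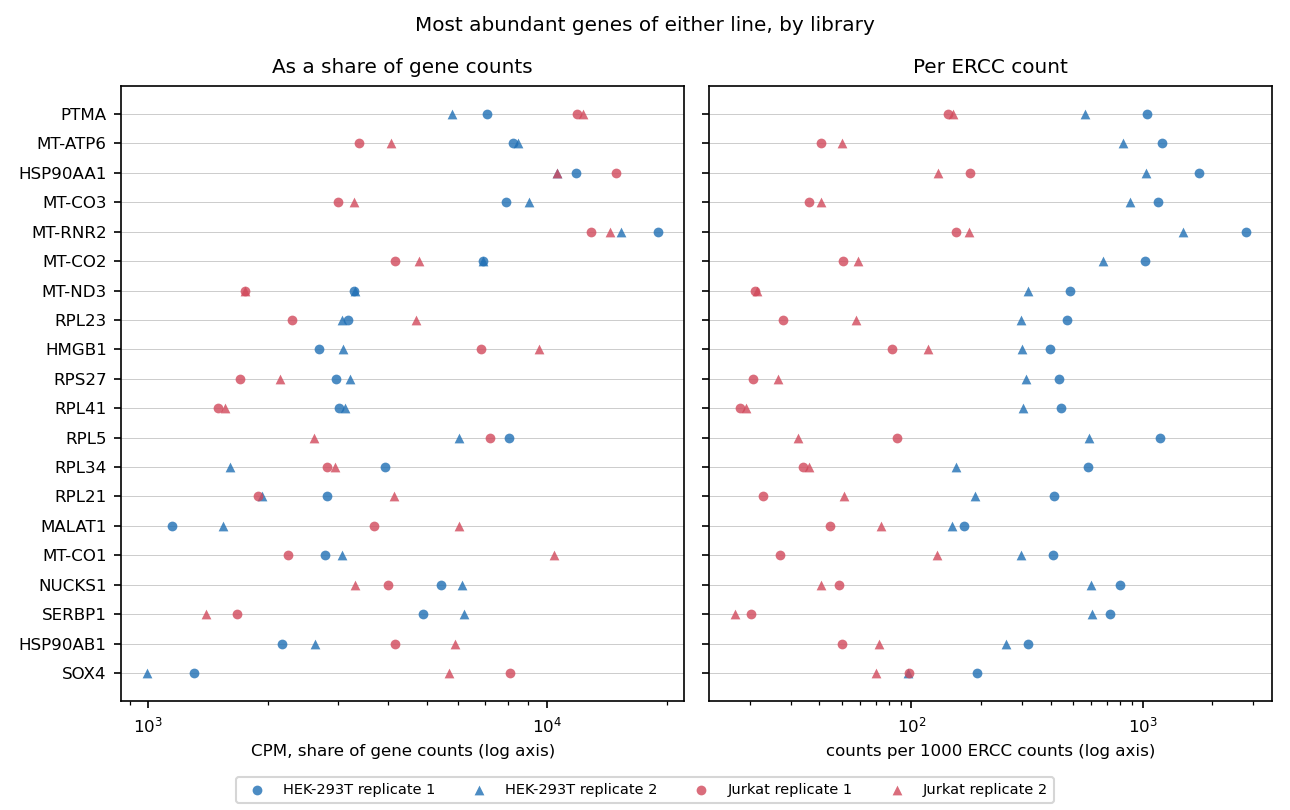
Levels of the most abundant genes of each line by library, as shares of gene counts (CPM) and per 1000 ERCC counts, on log axes, with 1 point per library. PTMA and HMGB1 lie higher in Jurkat as shares and higher in HEK per ERCC count, and SOX4, at 8078 and 5697 CPM in Jurkat, comes closest to meeting between the lines per ERCC count.

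The largest differences named the lineages. On the HEK side, among genes at a mean of 50 CPM or more, they were SMIM10, DEPDC1, HOXA10, ZFHX4, CALD1, FIGN, CDKN2A, GAL, VCAN, HOXA9, HOOK1 and RAB13. CALD1, which encodes caldesmon of contractile actin filaments, lies at chr7:134744252-134970729 on the plus strand of GRCh38. It had 775 and 739 CPM in the HEK libraries and 2.01 and 0.645 in the Jurkat libraries, a log2 difference of 9.00 ± 0.51 (adjusted p = 0.00064). HOXA10, a homeobox gene of the posterior body, had 233 and 238 CPM against 0.448 and 0.289, and the ratio of the summed counts was 666 with an exact 95% counting interval from 246 to 2315. CDKN2A, an inhibitor of CDK4 and CDK6, had 178 and 155 CPM against 0.671 and 0.161. SMIM10 was at 0 in both Jurkat libraries and at least 126-fold higher in HEK, taking 3 counts per library as the floor.

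On the Jurkat side they were FYB1, GIMAP7, SIX6, GPR174, PTPRC, IFI16, SLA, ARPP21, GRAP2, ADCYAP1 and the long noncoding RNAs PRAL and ENSG00000229914. FYB1, an adaptor that joins T cell receptor signals to integrins and actin, lies at chr5:39105252-39274528 on the minus strand of GRCh38. It had 0.212 and 0.264 CPM in the HEK libraries and 1385 and 1172 in the Jurkat libraries. Its log2 difference was -12.50 (edgeR adjusted p = 0.00064). As 3 counts are 0.317 and 0.198 CPM in these HEK libraries, this fold rests on few HEK reads. No counting interval was made for it. PTPRC, the leukocyte phosphatase CD45, had 0.846 and 0.198 CPM against 1363 and 1670. IFI16, a sensor of DNA in the nucleus and cytosol, had 0.212 and 0.330 against 528 and 1305, and its Jurkat libraries lay over 2-fold apart. ARPP21 and GRAP2, an adaptor of T cell receptor signaling, were at 0 in both HEK libraries and at least 462-fold and 356-fold higher in Jurkat. SIX6, an eye development factor, had 0 and 0.066 CPM in HEK and 140 and 210 in Jurkat. These genes also stayed higher in Jurkat per ERCC count, FYB1 by 548-fold on the same few HEK reads.

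Genes of the T cell receptor and its readout were higher in Jurkat almost without exception. Of 16 receptor genes listed, 13 passed the filter and 13 were called higher in Jurkat, with a median log2 difference of -9.51, or -8.85 with genes at 0 held at their bound. The same 13 were also higher in Jurkat per ERCC count. CD3G, a signaling chain of the receptor, had 1.69 and 0.660 CPM in HEK and 379 and 511 in Jurkat. TRBC1, the constant part of the beta chain, had 0.741 and 0.198 against 343 and 437. CD1E, a lipid-presenting protein of immature thymocytes, had 0.317 and 0.198 against 178 and 185, with its Jurkat libraries close together. CD4, CD8A and ICOS did not pass the filter.

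Of 26 signaling genes, 22 were higher in Jurkat and 4 were not called, with a median of -6.53, or -6.03 at the bounds. LCK, the kinase that starts receptor signaling, had 1.59 and 1.12 CPM in HEK and 152 and 141 in Jurkat. PTPN7, a phosphatase of blood cells, had 0.212 and 0.264 against 306 and 315. The members not called were FYN, PLCG1, PAG1 and SH2D2A. FYN, the Src family kinase that T cells share with neurons and epithelia, had 136 and 146 CPM in HEK and 173 and 130 in Jurkat, and the libraries overlapped.

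Transcription factors of the T lineage followed the same direction with smaller folds. Of 24 listed, 19 passed the filter and 16 were higher in Jurkat, with a median of -5.16. TOX2, TCF3 and LDB1 were not called. LEF1 had 35.7 and 32.8 CPM in HEK and 938 and 797 in Jurkat, and its relative TCF7, which also acts with beta-catenin, 20.9 and 15.6 against 688 and 725. IKZF2 of the Ikaros family had 8.04 and 14.5 against 764 and 363, with its Jurkat libraries over 2-fold apart. RUNX1, a factor of blood stem cells and T cells, had 2.96 and 2.37 against 185 and 169. Of the list, 11 genes were also higher in Jurkat per ERCC count.

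Surface and cytoskeletal genes of leukocytes formed 3 further groups. Of 24 surface genes, 21 passed the filter, 19 were higher in Jurkat and ITGAE was not called. CD37, a tetraspanin of mature B cells, was the member higher in HEK, at 5.52 and 8.85 CPM against 0.448 and 1.10. SPN, the mucin CD43, had 0.423 and 0.924 CPM in HEK and 1600 and 1703 in Jurkat. Of 24 actin regulators of blood cells, the 23 that passed the filter were higher in Jurkat, with a median of -7.80, or -6.24 at the bounds, and 16 were higher per ERCC count. IQGAP2 and CYFIP2 were the abundant members with small folds, at 83.9 and 124 CPM against 410 and 341, and 51.2 and 73.2 against 521 and 309. The 7 GIMAP genes listed, GTPases of lymphocyte survival that lie together on chromosome 7, summed to 0.317 and 0.462 CPM in HEK and 840 and 932 in Jurkat. All 7 passed the filter and were called higher in Jurkat on both scales.

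Antigen presentation differed in parts of the pathway. Of 20 genes of MHC class I presentation, 11 were higher in Jurkat and 9 were not called, with a median of -1.32. Without the first or the second HEK library, 8 and 7 were called. Per ERCC count, 14 were higher in HEK and 4 in Jurkat, with a median of 2.22. B2M, the light chain of class I molecules, had 86.1 and 79.6 CPM in HEK and 397 and 343 in Jurkat, and per ERCC count it was called higher in HEK. The immunoproteasome subunits PSMB8 and PSMB9 had 0.423 and 0.330, and 0.317 and 0.198 CPM in HEK, against 44.5 and 62.9, and 47.0 and 49.2 in Jurkat. NLRC5, the activator of class I genes, had 1.59 and 1.12 against 48.1 and 43.7. As shares, 16 of 25 tested genes of innate sensing were also higher in Jurkat, of 30 listed, while per ERCC count 13 were higher in HEK and 3 in Jurkat. Those were led by IFI16 and the factors IRF1, at 6.96 and 5.94 against 148 and 77.3 CPM, and IRF2, at 6.24 and 2.24 against 35.8 and 94.5, neither of which was called per ERCC count. SAMHD1, which breaks down nucleotides, was the member higher in HEK, at 77.6 and 95.5 CPM against 2.01 and 1.84.

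HEK was higher in genes of attached growth and of the embryo. Of 36 matrix genes, 34 passed the filter and 29 were higher in HEK, with a median log2 difference of 4.97, or 4.64 at the bounds, and the other 5 were not called. VCAN, a large matrix proteoglycan, had 108 and 126 CPM in HEK and 0.224 and 0.322 in Jurkat. LAMC1, the gamma chain of laminins, had 73.5 and 98.8 against 0 and 0.645. LAMB1, a laminin beta chain, had 84.6 and 37.4 against 8.06 and 7.90, with its HEK libraries over 2-fold apart. FN1, the fibronectin gene, had 16.8 and 16.2 CPM in HEK and 11.6 and 7.09 in Jurkat and was not called.

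Junction genes followed. Of 28 listed, 22 passed the filter, 17 were higher in HEK and 4 were not called. The polarity gene PARD3 was higher in Jurkat, at 72.2 and 79.5 CPM against 178 and 157. PARD3 was not called higher in Jurkat with the group of file names as a term. DSP, which anchors keratins to desmosomes, had 157 and 304 CPM in HEK and 0.448 and 1.13 in Jurkat. KRT8, the keratin partner of KRT18, had 12.9 and 13.7 against 1.34 and 1.29. Of 22 genes of YAP, TAZ and TEAD, which sense cell spreading, 18 passed the filter and 11 were higher in HEK. TEAD1, the most abundant of them, had 73.2 and 80.9 CPM against 14.8 and 18.5. Contractile genes did not divide this way. Of 30 listed, 29 passed the filter, 8 were higher in HEK, 5 were higher in Jurkat and 16 were not called. VCL and ACTN4, which link actin to adhesions, were higher in HEK with CALD1, and TPM4, MYL12A, CNN2, LASP1 and CSRP1 in Jurkat. TPM4, a tropomyosin, had 149 and 171 CPM in HEK and 812 and 545 in Jurkat.

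Developmental factors showed some of the widest gaps. Of 25 kidney development factors, 21 passed the filter and 19 were higher in HEK, with a median of 5.36, or 3.67 at the bounds. FOXC1, a forkhead factor of mesenchyme, had 512 and 450 CPM in HEK and 2.01 and 2.58 in Jurkat. WT1 and FOXD1 were not called, and PAX8, OSR1 and TFAP2B were among those that did not pass the filter. Of 39 HOX genes, 33 passed the filter and 28 were higher in HEK, with a median of 4.10, or 3.92 at the bounds. HOXA5 had 288 and 195 CPM against 40.3 and 23.4, and HOXC9 216 and 184 against 11.9 and 10.8. HOXB4, a gene used by blood stem cells, was the member higher in Jurkat, at 20.3 and 13.0 against 44.1 and 38.2. It was not called higher in Jurkat with the group of file names as a term. HOXB3 and HOXB7 were 2 of the 4 not called, and HOXB7 overlapped between the lines, with 59.4 and 81.4 CPM in HEK and 44.3 and 80.4 in Jurkat.

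Neuronal genes split between the lines. Of 30 listed, 19 passed the filter, 12 were higher in HEK and 6 in Jurkat. NEFM, a neurofilament chain, had 1152 and 1324 CPM in HEK and 9.62 and 4.84 in Jurkat, a 171-fold difference. CKB, the brain creatine kinase, had 499 and 494 against 7.38 and 5.80, and MAP1B, which binds microtubules in axons, 336 and 395 against 1.79 and 1.13. The 6 higher in Jurkat were SOX4, SOX11, DPYSL2, ENO2, TUBA1A and TUBB3. SOX11, a relative of SOX4, had 0.295 and 0.264 CPM in HEK and 83.9 and 85.8 in Jurkat.

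Signaling pathways of development had more members higher in HEK than in Jurkat. In the Wnt list, 31 of 36 genes passed the filter, 17 were higher in HEK, 2 in Jurkat and 12 were not called. WNT5A, a ligand, had 69.9 and 48.8 CPM in HEK and 0.448 and 0.484 in Jurkat, and WLS, which carries Wnt proteins to the surface, 67.7 and 57.5 against 0.448 and 0.645. The receptors FZD7 and LGR4 had 42.4 and 21.5 against 2.69 and 1.29 CPM, and 15.3 and 19.2 against 0.448 and 0.806. The members higher in Jurkat act in the cytosol and nucleus. GSK3B, a kinase of the beta-catenin destruction complex, had 34.0 and 45.9 CPM against 60.2 and 101, and TCF7L2, a nuclear partner of beta-catenin, 59.5 and 48.1 against 110 and 80.1. Without the first or the second HEK library, 10 and 9 Wnt genes were called higher in HEK.

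Genes of Notch receptors and targets differed between the lines as shares of mRNA. Of 25 genes listed, 21 passed the filter, 11 were higher in HEK and 4 in Jurkat. Per ERCC count, 19 were higher in HEK, NOTCH1 among them, and 2 in Jurkat. Activity of the pathway was not measured. The receptor NOTCH1 had 6.45 and 4.95 CPM in HEK and 24.8 and 26.6 in Jurkat, and NOTCH2 20.9 and 18.7 against 4.72 and 2.79. The target HEY1 had 118 and 127 CPM in HEK and 0.895 and 1.77 in Jurkat, and HES1 268 and 310 against 82.8 and 104. DTX1, a target in lymphocytes, was at 0 in both HEK libraries and had 14.3 and 15.3 CPM in Jurkat. MFNG and NUMB were the others higher in Jurkat. Ligand genes DLL1, DLL3 and JAG2 were higher in HEK, with DLL3 at 16.5 and 14.6 CPM against 2.91 and 3.22. Without either HEK library, 7 Notch genes were called higher in HEK.

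Growth factor genes and receptors were mostly higher in HEK, at 21 of 29 tested, of 35 listed, or 14 and 13 without the first or the second HEK library. EFNB2, a membrane-bound ligand, had 52.1 and 60.3 CPM against 1.12 and 1.61. The receptors MET and EGFR had 24.7 and 21.6, and 24.4 and 20.5 CPM in HEK, and 0.224 and 0 CPM each in Jurkat. In the TGF-beta and BMP list, 27 of 31 passed the filter, 10 were higher in HEK and 4 in Jurkat. The inhibitors of basic helix-loop-helix factors divided by member. ID2 had 435 and 495 CPM in HEK and 17.0 and 17.2 in Jurkat, ID4 had 55.0 and 61.6 against 1.12 and 0.645, and ID3 had 18.2 and 19.9 against 77.2 and 60.8.

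Genes of metabolism differed in parts that ran in opposite directions. Cholesterol genes were the main set higher in Jurkat. Of 27 listed, 26 passed the filter, 14 were higher in Jurkat, 4 in HEK and 8 were not called, with a median of -1.26. Without the first or the second HEK library, 8 and 7 were called higher in Jurkat, and with the group of file names as a term 14 were. Of the 14 called with that term, 12 were also called in the pure libraries. INSIG1, which holds the SREBP regulators back when sterol is plentiful, had 217 and 202 CPM in HEK and 590 and 1067 in Jurkat. The synthesis enzyme gene FDFT1 had 38.1 and 40.9 against 168 and 168. HMGCS1 had 24.3 and 87.5 CPM in HEK and 317 and 237 in Jurkat, with its HEK libraries over 2-fold apart. CYP51A1, NSDHL, SC5D and SCAP were higher in HEK, with CYP51A1, a demethylase of sterol synthesis, at 60.9 and 67.8 against 7.61 and 6.71. Per ERCC count, 25 of the 26 were higher in HEK and HMGCS1 was not called.

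The amino acid and ATF4 stress list ran the other way. Of 34 genes, 22 were higher in HEK, ATF5 and VLDLR were higher in Jurkat and 10 were not called, with a median of 0.98. Neither ATF5 nor VLDLR was called higher in Jurkat with the group of file names as a term. Without either HEK library, 12 were called higher in HEK, and 13 with the group of file names as a term. The factor ATF4 had 660 and 1044 CPM in HEK and 329 and 337 in Jurkat. PHGDH, which starts serine synthesis, had 285 and 265 against 62.0 and 71.2, and ASNS, the asparagine synthetase, 187 and 176 against 17.7 and 32.3. Of 32 redox genes, 17 were higher in HEK and GCLM and CAT in Jurkat, or 10 in HEK without either HEK library or with the group of file names as a term, with thioredoxin, TXN, at 438 and 388 CPM against 115 and 110. Of 25 glycolysis genes, 16 were not called, HK1, PFKL, PFKM and TPI1 were higher in HEK, and PFKP, ALDOC, ENO2, SLC2A3 and SLC16A3 in Jurkat. GAPDH, which catalyses a middle step, had 1034 and 935 CPM against 1144 and 918 and was not called. Of 29 nucleotide genes, 10 were higher in HEK and ADA, TYMS, DUT and DCK in Jurkat, or 5 and 6 in HEK without the first or the second HEK library. With the group of file names as a term, 4 nucleotide genes were called higher in HEK and 3 in Jurkat, and 2 and 3 glycolysis genes. In the pure libraries, 48.3% of tested nucleotide genes were called in either direction, against 43.2% of all genes tested.

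Genes of protein synthesis and respiration held larger shares of gene counts in both HEK libraries than in either Jurkat library. Cytosolic ribosomal protein genes held 12.6% and 11.9% of gene counts in the HEK libraries and 7.35% and 8.54% in the Jurkat libraries, a 1.54-fold difference. The 13 protein genes of the mitochondrial genome held 4.66% and 4.70% against 2.37% and 3.53%, and nuclear genes of the respiratory chain 1.5% and 1.63% against 0.945% and 0.974%. In these 3 classes the lines did not overlap, as for 74.8% of single genes. The exact two-sided permutation test of 2 against 2 libraries gave p = 0.33 for each, the smallest it allows, so it cannot pass 0.05. Chaperone genes held 2.11% and 2.08% in HEK and 2.6% and 2.41% in Jurkat, and glycolysis genes overlapped.

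Gene by gene, nearly all called members were higher in HEK, and most members were not called. Of 86 cytosolic ribosomal protein genes, 85 passed the filter, 29 were higher in HEK and RPL39L, a copy of RPL39 best known from testis, was higher in Jurkat. RPL39 had 3032 and 2319 CPM in HEK and 678 and 724 in Jurkat, 3.82-fold higher in HEK. Reads of ribosomal protein genes can be divided with their many processed copies, so single members are uncertain. Of 78 mitochondrial ribosomal protein genes, 22 were higher in HEK and MRPL57 in Jurkat. Of 81 tested nuclear respiratory genes, 34 were higher in HEK and NDUFV2 in Jurkat, with a median of 0.64, against 24.2% of all genes called higher in HEK. Among 61 tested translation factors, 17 were higher in HEK and EIF5B and EIF2S2 in Jurkat. In either direction, 35.3% of tested cytosolic ribosomal, 29.5% of mitochondrial ribosomal and 31.1% of translation factor genes were called. Over all genes tested it was 43.2%. EIF4A1, the helicase of cap-dependent initiation, had 1596 and 1648 CPM against 383 and 493. In the proteasome list, 8 of 38 tested were higher in Jurkat and 4 in HEK. PSMA8, a subunit known from testis, was at 0 in both HEK libraries and had 14.5 and 7.25 CPM in Jurkat. These counts fell when a HEK library was left out. Without the first or the second, 9 and 8 cytosolic ribosomal protein genes were called higher in HEK, 7 and 7 mitochondrial ones, 6 and 4 nuclear respiratory genes, and 6 and 8 translation factors. With the group of file names as a term, they were 6, 7, 5 and 8. MRPL57, NDUFV2, EIF5B and EIF2S2 were then not called higher in Jurkat.

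Cell cycle genes were called no more often than genes in general, at 42.9% of the mitosis and 19.0% of the replication list against 43.2% of all genes tested. Of 42 mitosis genes, 13 were higher in Jurkat and 5 in HEK, with a median of -0.69. TOP2A, which untangles chromosomes, had 1159 and 1125 CPM in HEK and 2084 and 1678 in Jurkat, and CDK1, the kinase of mitotic entry, 129 and 94.7 against 296 and 643. AURKB, MAD2L1, UBE2C, ESPL1 and CKS1B were the members higher in HEK. Without the first or the second HEK library, 1 and 4 mitosis genes were called higher in Jurkat and 0 in HEK, and with the group of file names as a term 2 and 0. Of 42 replication genes, 34 were not called, 5 were higher in HEK and 3 in Jurkat. CLSPN, a sensor of stalled forks, had 499 and 542 CPM against 731 and 947. With the group as a term, 1 replication gene was called in each direction.

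Regulators of G1 had calls in both directions. Of 24, 7 were higher in HEK, 6 in Jurkat and 11 were not called, so that 54.2% were called against 43.2% of all genes, and the sign of the median changed with the scaling. HEK was higher in CCND1, CCND2, CCNE1, CDK4 and the inhibitors CDKN1A, CDKN2A and CDKN2B. Jurkat was higher in CCND3, CDK2, CDK6, RB1 and the inhibitors CDKN1B and CDKN2D. These calls are as shares of mRNA. Per ERCC count, 21 of the 24 were higher in HEK, with CCND3, CDK2 and CDKN1B among them. CDK6 was then higher in Jurkat, and RB1 and CDKN2D were not called. CCND1, a D cyclin of attached cells, had 11.3 and 13.0 CPM in HEK and 0.671 and 0.161 in Jurkat, and CCND3, a D cyclin of lymphocytes, 13.8 and 15.6 against 66.0 and 57.2. RB1, the brake that these kinases release, had 22.4 and 27.6 CPM against 146 and 207. Of 25 p53 targets and regulators, 23 passed the filter, 10 were higher in HEK, and ZMAT3 and SUSD6 in Jurkat.

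**Figure D3:**
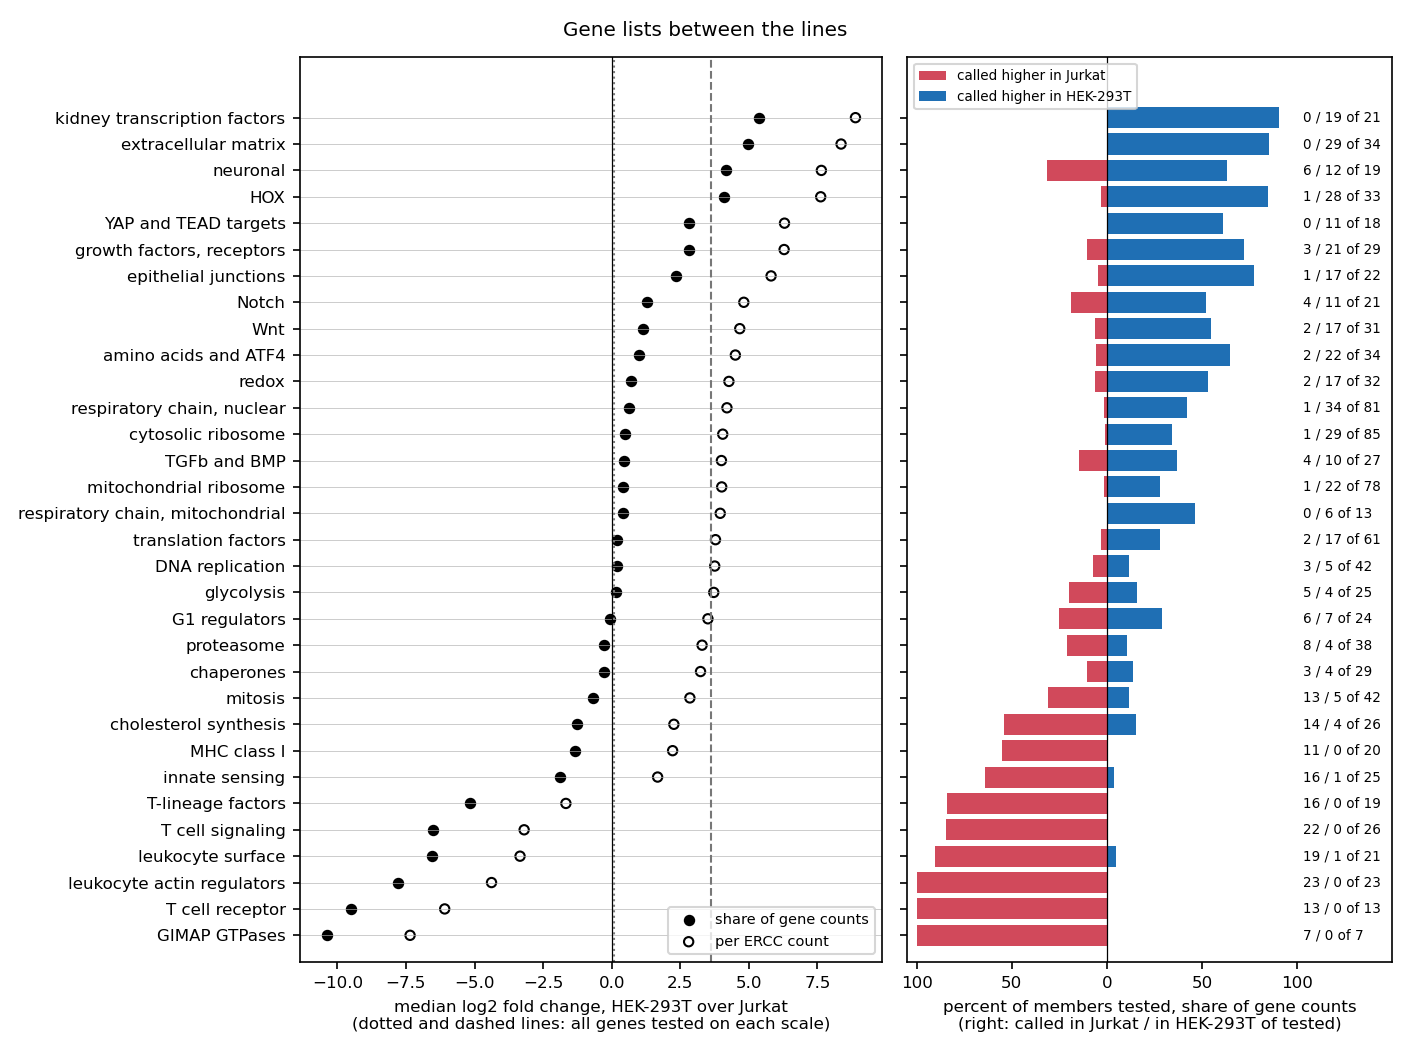
Left, the median log2 fold change of HEK over Jurkat for the tested members of 32 gene lists (rows), as shares (filled) and per ERCC count (open), with lines at the medians of all genes, 0.07 and 3.61. Right, the percentage of tested members called higher in Jurkat (to the left) and in HEK (to the right). Of the lists shown, GIMAP, T cell receptor and leukocyte actin lists lie furthest to the Jurkat side, at medians of -10.39, -9.51 and -7.80. The kidney factor, matrix and neuronal lists lie furthest to the HEK side, at 5.36, 4.97 and 4.15. With genes at 0 held at their bound, the order changes. T cell receptor, GIMAP, leukocyte surface and leukocyte actin medians are then -8.85, -8.13, -6.54 and -6.24. Matrix, neuronal, HOX and kidney factor medians are then 4.64, 4.15, 3.92 and 3.67.

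Related genes were compared within each library, where the ratio of 2 members does not depend on the scaling. In 39 pairs, a member was listed as lymphoid and its relative as general. These are labels of the list and do not hold for every pair, since STMN3 is also in the neuronal list. The ratios did not overlap between the lines in 37 pairs, where 74.8% of single genes had CPM that did not overlap. The lymphoid member was favoured in Jurkat in 34 of these, and the larger member switched in 22 pairs. PIK3CD and PIK3CA, STMN3 and STMN1, and TUBA4A and TUBA1A went the other way, and LDHB and LDHA, and TPM3 and TPM2 overlapped. The median change of the ratio was 39.3-fold. It rests in 13 pairs on a member at 3 counts or fewer in a library, with 0.5 added to counts.

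The plastins, which bundle actin, gave a wide exchange. LCP1, the plastin of leukocytes, had 0.212 and 0.660 CPM in the HEK libraries and 582 and 397 in the Jurkat libraries. PLS3, the plastin of most other tissues, had 271 and 451 against 3.36 and 2.90. The log2 ratio of LCP1 to PLS3 was -10.00 and -9.35 in HEK and 7.39 and 7.06 in Jurkat. The exchange factors of Rac behaved alike. DOCK2 was at 0 in both HEK libraries and had 35.4 and 50.6 CPM in Jurkat, and DOCK1 had 33.0 and 70.9 CPM in HEK and 0.448 and 0.161 in Jurkat. EVL and ENAH, which lengthen actin filaments, changed places within the range of well counted genes, at 64.8 and 48.1 against 274 and 287 CPM for EVL and 654 and 675 against 61.4 and 82.8 for ENAH.

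In other pairs the general member stayed abundant in Jurkat. RAC2, the Rac GTPase of blood cells, had 0 and 0.198 CPM in HEK and 64.7 and 64.6 in Jurkat. RAC1, used in all tissues, had 559 and 621 against 387 and 508 and was not called, so RAC1 was the larger member in every library. FERMT3, the kindlin of blood cells, was near 0 in HEK and had 39.3 and 37.0 CPM in Jurkat, where FERMT2, the kindlin of attached cells, was called higher in HEK but was still at 32.4 and 31.4. ZAP70 and SYK, kinases that bind the receptor chains, were both higher in Jurkat, and SYK was the larger by counts in each library, at 74.7 and 93.8 CPM in Jurkat against 33.8 and 25.3 for ZAP70. Of the 39 pairs, the lymphoid member was called higher in Jurkat in 34, the general member higher in HEK in 15 and higher in Jurkat in 9, and 14 pairs had opposite calls.

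**Figure D4:**
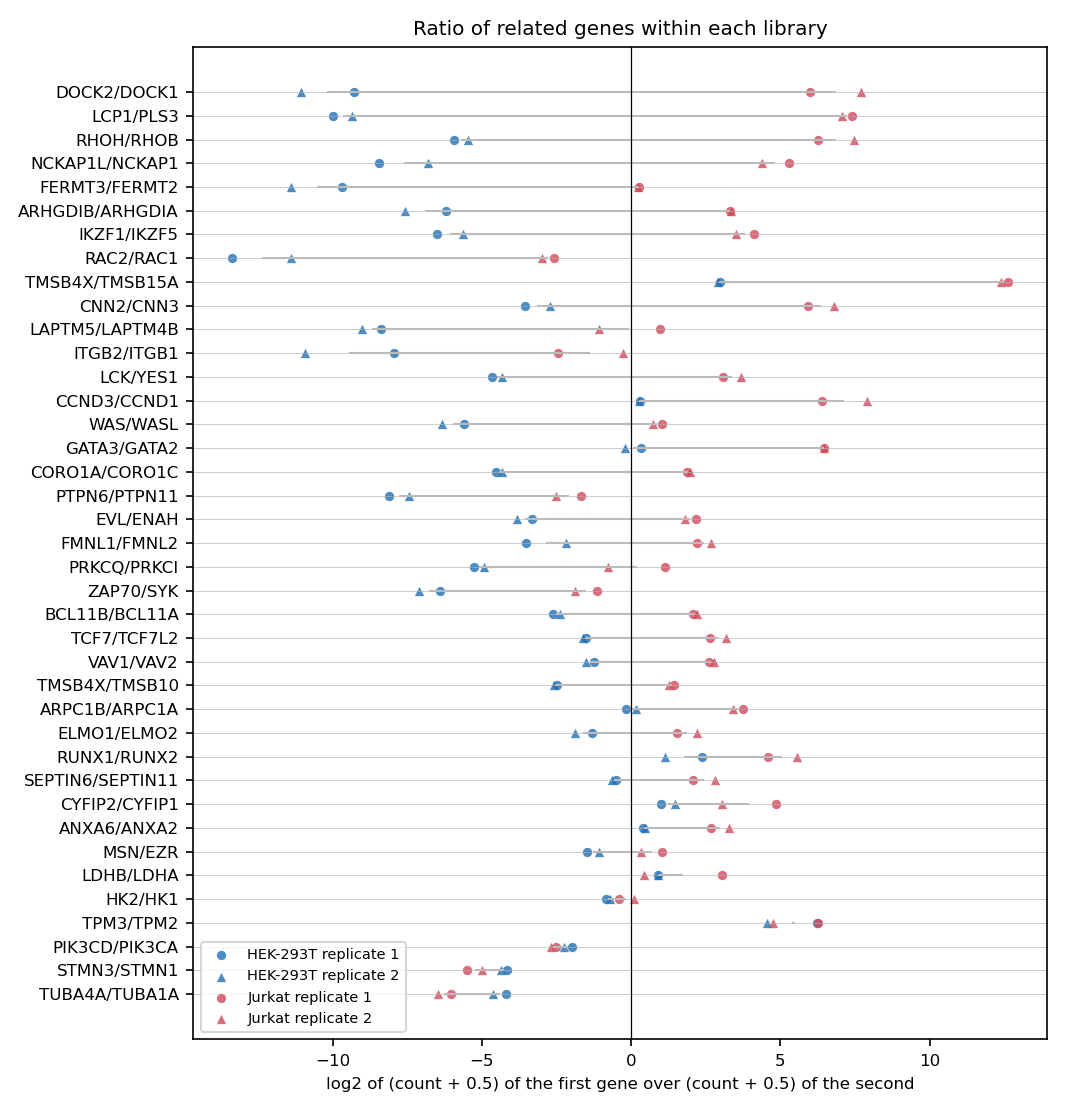
Log2 ratio of the lymphoid to the general member of each of 39 gene pairs (x axis), by library, with points for the 2 HEK and 2 Jurkat libraries. The lines do not overlap in 37 pairs, and the Jurkat points lie further to the side of the lymphoid member in 34.

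The promoters of these genes are shown because the gene groups differed in how many CG steps the bases before the start hold. CG steps are depleted in most of the genome and kept in CpG islands, which lie at the starts of many widely expressed genes. The 250 bases before the start of both members of 2 exchanged pairs, of a CD3 chain and of a T lineage factor are given from RefSeq on GRCh38.p14, 5′ to 3′ on the strand of the gene, with each CG step in capitals. These 6 genes were chosen after the counts of CG steps had been seen. DOCK2 is at chr5:169637025-169637274 on the plus strand with 12 CG steps, and DOCK1 at chr10:126905178-126905427 on the plus strand with 37. LCP1 is at chr13:46182178-46182427 on the minus strand with 2, and PLS3 at chrX:115560924-115561173 on the plus strand with 10. CD3D is at chr11:118342706-118342955 on the minus strand with 4, and BCL11B, a zinc finger factor that commits cells to the T lineage, at chr14:99272198-99272447 on the minus strand with 17.
DOCK2: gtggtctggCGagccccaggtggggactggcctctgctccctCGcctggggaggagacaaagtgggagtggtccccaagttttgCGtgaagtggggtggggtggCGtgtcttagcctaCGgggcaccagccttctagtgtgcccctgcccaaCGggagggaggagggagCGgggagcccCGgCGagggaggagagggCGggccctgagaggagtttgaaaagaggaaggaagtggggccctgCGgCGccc
DOCK1: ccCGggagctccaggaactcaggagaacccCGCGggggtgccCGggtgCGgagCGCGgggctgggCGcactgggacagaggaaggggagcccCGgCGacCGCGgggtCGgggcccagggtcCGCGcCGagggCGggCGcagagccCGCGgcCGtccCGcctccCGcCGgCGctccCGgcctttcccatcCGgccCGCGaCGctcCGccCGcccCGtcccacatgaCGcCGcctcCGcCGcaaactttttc
LCP1: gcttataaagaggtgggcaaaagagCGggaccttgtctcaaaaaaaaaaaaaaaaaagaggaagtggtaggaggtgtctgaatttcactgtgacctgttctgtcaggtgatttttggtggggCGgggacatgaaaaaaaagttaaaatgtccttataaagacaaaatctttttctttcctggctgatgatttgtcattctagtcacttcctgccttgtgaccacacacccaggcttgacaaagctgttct
PLS3: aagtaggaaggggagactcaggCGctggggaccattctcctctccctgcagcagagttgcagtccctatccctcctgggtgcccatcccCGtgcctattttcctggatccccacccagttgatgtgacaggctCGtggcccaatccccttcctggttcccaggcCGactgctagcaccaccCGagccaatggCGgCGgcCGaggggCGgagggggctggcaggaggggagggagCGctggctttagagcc
CD3D: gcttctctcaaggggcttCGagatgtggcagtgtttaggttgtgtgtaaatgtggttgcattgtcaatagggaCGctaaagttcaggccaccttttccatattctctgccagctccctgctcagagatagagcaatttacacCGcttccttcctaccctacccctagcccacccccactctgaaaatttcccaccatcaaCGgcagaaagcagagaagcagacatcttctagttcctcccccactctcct
BCL11B: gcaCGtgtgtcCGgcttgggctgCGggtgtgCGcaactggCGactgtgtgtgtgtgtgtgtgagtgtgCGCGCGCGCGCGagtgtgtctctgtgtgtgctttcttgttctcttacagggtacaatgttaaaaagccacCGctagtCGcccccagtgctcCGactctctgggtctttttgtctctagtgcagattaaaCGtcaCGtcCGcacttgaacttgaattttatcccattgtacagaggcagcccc

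The count was then made for all genes. Windows of 250 bases before and 50 bases after the canonical start were read from GRCh38 for 12571 of the 12592 tested protein-coding genes. The ratio of observed to expected CG steps, a measure of CpG islands that corrects for base composition, was above 0.6 in 87.6% of them. Genes called higher in HEK by over 16-fold had it in 630 of 769 windows (81.9%). Genes called higher in Jurkat by over 16-fold had it in 161 of 411 (39.2%), with a median of 10 CG steps a window against 28 over all tested genes. It was 88.1% for all genes called higher in HEK, 76.0% for all called higher in Jurkat and 91.3% for those not called. Genes called higher in Jurkat per ERCC count had it in 34.7%. No test was made, since genes of a family are not independent of each other.

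Within Jurkat the lists divided in the same description. None of 10 windows of T cell receptor genes and none of 7 of GIMAP genes was above 0.6, and 4 of 21 of leukocyte surface genes, 7 of 26 of T cell signaling genes and 7 of 23 of leukocyte actin genes were. T lineage transcription factors had it in 17 of 19, and cholesterol genes in 26 of 26. On the HEK side it was 26 of 34 for matrix, 30 of 33 for HOX and 29 of 31 for Wnt genes. In 11 pairs with opposite calls and both promoters in the RefSeq table, the general member was above 0.6 in 9 and the lymphoid member in 5. The general member held more CG steps in 7 of these pairs. TMSB4X, CNN2 and FMNL1 held more than TMSB15A, CNN3 and FMNL2, and GATA3 and GATA2 held the same number. The pair of LCP1 and PLS3 shows a low ratio in both members, at 0.149 and 0.401 over the 300 bases, while that of DOCK2 and DOCK1 was 0.488 and 0.980.

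Short motifs were counted in the same windows on both strands. The letters TGTGGT, the core bound by RUNX factors, were in 8.38% of the windows of tested genes, in 7.80% of those over 16-fold higher in HEK and in 19.7% of those over 16-fold higher in Jurkat. Over all protein-coding genes, expressed or not, they were in 10.6%. G and C made up a median of 59.7% of the bases of windows of the Jurkat group. It was 69% in the HEK group and 66.7% over all tested genes. The part of base composition in the count of TGTGGT was not tested. The letters ACCGGAAG, bound by ETS factors, were in 4.38% of tested windows, 1.56% of the HEK group and 0.487% of the Jurkat group. These letters hold a CG step, and windows of the Jurkat group had a median of 10 CG steps against 28 over all tested genes. The part of CG content in this count was not tested, and ETS sites without a CG step were not counted. TATAAA, the TATA box, was in 4.94% of tested windows, 7.67% of the HEK group and 8.27% of the Jurkat group. These are matches of letters in a window, and binding was not measured.

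**Figure D5:**
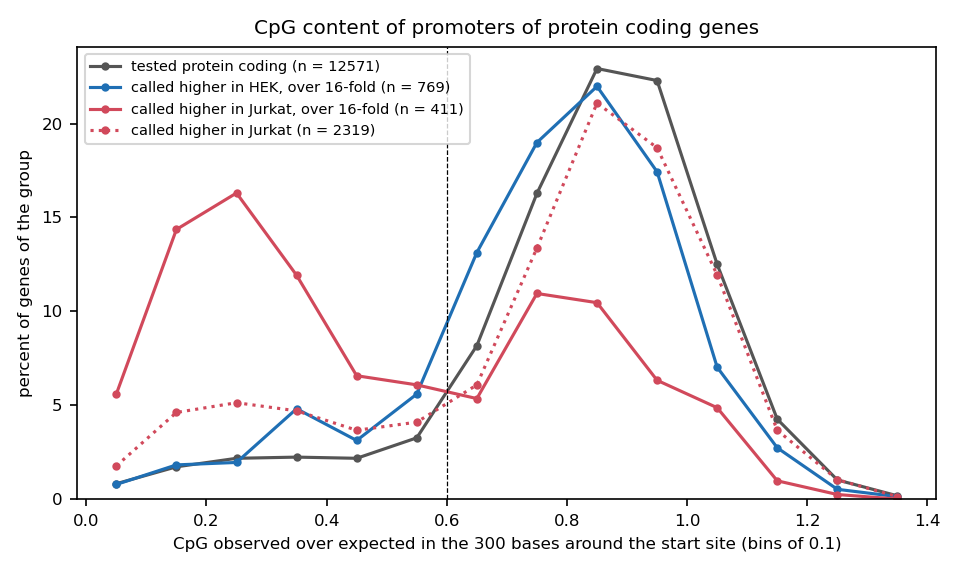
Distribution of the ratio of observed to expected CG steps (x axis) in 300-base promoter windows, as the percentage of windows (y axis), for all tested protein-coding genes, for genes called over 16-fold higher in HEK or in Jurkat, and for all called higher in Jurkat (dotted). Of the Jurkat group, 39.2% of windows are above 0.6, against 81.9% of the HEK group and 87.6% of all tested genes.

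The mixed libraries gave a check that shares no library with the pure lines. In 10 libraries with 80% to 20% HEK cells, edgeR's quasi-likelihood test of the slope over the HEK percentage called 91 of 17242 genes rising (0.528%) and 876 falling (5.08%). Of the genes called higher in HEK, 3818 could be tested there and 86.0% had a rising slope. Among 2818 called higher in Jurkat, 88.6% had a falling slope, while 50.6% of all genes tested rose. Past the adjusted threshold were 69 of the HEK genes in the same direction and 1 in the opposite, and 808 of the Jurkat genes in the same direction.

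The deposited file names fall into 2 groups, and both HEK libraries are in 1 and both Jurkat libraries in the other. Within the pure libraries the line and this group cannot be told apart. The mixtures with 60% and 50% HEK cells hold both groups, so a fit over all 14 libraries with the group as a term is possible. It called 2958 genes higher in HEK and 1816 higher in Jurkat. Because it includes the pure libraries that picked the genes above, its agreement with those calls is not an independent check. The direction was the same for 3818 of the 3825 HEK genes and 2958 of the 3002 Jurkat genes, and 2611 and 1670 of them were also called. Members of the lineage lists called both in the pure libraries and there were 13 of 13 T cell receptor, 21 of 22 T cell signaling, 16 of 16 T lineage factor, 22 of 23 leukocyte actin and 7 of 7 GIMAP genes higher in Jurkat, and 27 of 29 matrix, 27 of 28 HOX and 18 of 19 kidney factor genes higher in HEK. Over the mixed libraries with the group as a term, 70.2% of the HEK genes rose and 74.3% of the Jurkat genes fell, and in the 6 mixed libraries of 1 group it was 86.2% and 88.1%.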

How the data were processed

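RNA-seq libraries of unmixed HEK-293T and Jurkat cells were compared, 2 per line, out of 14. The authors aligned reads with STAR 2.6.1b to GRCh38 and deposited RSEM 1.3.1 expected counts, not normalized, and TPM per library, as their processing notes and methods state. The series table repeats the expected counts and was not used. ERCC rows were left out of CPM, and deposited TPM were rescaled over genes. Symbols came from GENCODE 44.

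Expected counts were rounded and tested with edgeR 4.0.16 in R 4.3.3 (TMM, filterByExpr, glmQLFit, glmQLFTest), with Benjamini-Hochberg adjustment over all 15794 genes that passed the filter and a threshold of 0.05. The second scale took ERCC totals as library sizes. DESeq2 1.42.0, other scalings, no filter, each library left out and the groups of file names were alternatives. Python 3.11.15, scipy 1.17.1 and matplotlib 3.10.9 were used otherwise. The steps were tested on simulated data.

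The genes named were the 10 highest by CPM and by TPM in each line, the 12 of largest fold in each direction at 50 CPM or more without overlap, up to 4 called and 2 uncalled members of each list by abundance, the markers, 39 gene pairs, and those of largest excess or near-equal level per ERCC count. Further list members were picked after their values were seen. The comparison and its 47 lists were chosen with earlier results of these data known. XIST and genes of the Y chromosome are not named. A line at 0 in both libraries was given the floor of 3 counts per library. Intervals and floors cover counting error only. Some genes that the rule for named genes selects are not reported here.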

Additional observations from a re-analysis of the deposited data

How the results depend on the processing

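No paired analysis was possible because the replicates share no number in the labels that ties a HEK library to a Jurkat library. No called gene named above changed direction under any alternative run. Of 192 such genes called as shares, 13 were not called by DESeq2, 0 with RLE factors, 15 on library totals, 40 with the group of file names over all 14 libraries, 20 and 19 without a Jurkat library and 45 and 52 without a HEK library.

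With each library left out in turn, 1769 to 3384 genes were higher in HEK and 1362 to 2843 in Jurkat, against 3825 and 3002, and with a single library in a line that library is assumed to vary like the other line. Per ERCC count, 336 to 493 were then higher in Jurkat, against 509. Bonferroni adjustment left 22 and 43. The fit over all 14 libraries with the group of file names gave 2958 and 1816. In the mixed libraries, 31 genes rose and 481 fell with the group as a term. In the 6 mixed libraries of 1 group, edgeR called 0 rising and 203 falling, with 509 and 1333 at an unadjusted p under 0.05, and no other tool was run. DESeq2 called 3158 and 2661 by share, and 14210 and 345 per ERCC count.

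Medians of 4 lists changed sign. Glycolysis went from 0.17 to -0.086 and chaperones from -0.28 to 0.057 with the group as a term. G1 regulators went from -0.05 to 0.18 on library totals and 0.0062 with the group as a term, and lay between -0.094 and 0.17 with a library left out. Mismatch repair, at 0.09, lay between -0.029 and 0.37 with a library left out. The log2 difference of the histone share was 0.34 with TPM and 0.45 with counts. The cause was not tested.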

Other observations

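Imprinted genes, which are read from the copy of 1 parent, divided between the lines. Of 24 listed, 10 passed the filter, 5 were higher in HEK and 2 in Jurkat. PLAGL1, a zinc finger factor, had 132 and 124 CPM in HEK and 5.59 and 4.19 in Jurkat, and GRB10, an adaptor that restrains growth signals, 29.6 and 31.3 against 0.448 and 0.161. The members higher in Jurkat both lie in the imprinted region of chromosome 15. NDN was at 0 in both HEK libraries and had 11.9 and 15.6 CPM in Jurkat, and SNRPN had 0.423 and 0.132 against 52.4 and 47.2.

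Large gene families had calls in both directions, at rates near that of all genes. Of tested members, 45.4% of ZNF genes, 45.7% of solute carriers and 47.8% of histone genes were called, against 43.2% of all genes. By direction, 24.2% of all genes were higher in HEK and 19.0% in Jurkat. Of 508 ZNF genes, 412 passed the filter, 127 were higher in Jurkat and 60 in HEK, with a median log2 difference of -0.42. With the group of file names as a term, 73 were higher in Jurkat and 49 in HEK. ZNF503 went against the family, at 773 and 724 CPM in HEK and 11.6 and 5.16 in Jurkat. Of 337 solute carriers, 197 passed the filter, 64 were higher in HEK and 26 in Jurkat. SLC25A5, which exchanges ADP and ATP across the mitochondrial membrane, had 395 and 309 CPM against 124 and 130. Without the first or the second HEK library, 23 and 28 solute carriers were called higher in HEK. Of 78 histone genes, 23 passed the filter, with 7 higher in HEK and 4 in Jurkat. Replication-dependent histone mRNAs lack a poly(A) tail, so their levels in a library of polyadenylated RNA do not follow their total amount.

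By chromosome, the X chromosome stood furthest to the HEK side. Of its 529 tested genes, 202 were called higher in HEK (38.2%) and 52 in Jurkat (9.83%), with a median log2 difference of 0.62, against 24.2%, 19.0% and 0.07 over all genes. Chromosome 18 lay at the other end, with a median of -0.28 and 63 of 243 genes higher in HEK (25.9%) against 78 in Jurkat (32.1%). Copy number was not measured.

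In some abundant genes 1 Jurkat library stood far from the other. MT-CO1 had 2242 and 10456 CPM in Jurkat and 2774 and 3061 in HEK, and LDHB had 2600 and 367 CPM in Jurkat and 722 and 720 in HEK. Neither gene was called.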
